A study of Mus musculus with 39 samples.

Results

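Full-length HER2 (FL-HER2) tumors taken 22 days after implantation were compared with FL-HER2 tumors taken 10 days after implantation, across all genes measured. Every FL-HER2 library of the series belonged to the comparison, 10 at day 10 and 9 at day 22, which is 19 of 39 libraries. The other 20 libraries came from tumors of the same PB2 mouse breast cancer model that carried p95HER2, a truncated form of the receptor, and they were used only to test whether a change with time differed between the constructs. The series title calls the tumors xenografts, and all of these groups share the PB2 background. No host strain, promoter of the construct or site of implantation is given in the sources used here, nor whether the PB2 cells are 1 clone. The number in a sample's name has 3 digits in every day 22 library and in day 10 replicates 7 and 9, and 5 digits in the other 8 day 10 libraries, as the column names and descriptions give it (the title of replicate 8 has 4). Whether a 5-digit name stands for a pool of tumors is not stated. The labels do not say whether libraries came from separate animals, so the p-values rest on the spread between samples that may in part be technical replicates.

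HER2, encoded by Erbb2, is a receptor tyrosine kinase without a known ligand of its own. It pairs with the other HER receptors and signals through the MAPK and PI3K pathways towards cyclin D1 and cell division. A growing mammary graft holds tumor epithelium together with host fibroblasts and their collagen matrix, vessels, macrophages and lymphocytes, and a bulk library mixes the RNA of all of them. Fewer cells of a type and less RNA per cell therefore cannot be told apart in any result given here.

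The 19 libraries held 21772259 to 44427621 reads (33538378 ± 5008356, SD, n = 19), so 1 CPM, the reads of a gene scaled to the library total, stood for at least 21.8 reads. Levels below are in CPM, and differences are day 22 minus day 10 on the deposited log2 scale, tested with limma. A value in parentheses after a gene is this log2 difference. Markers of neighbouring tissue moved with the day. The 25 genes of a skeletal muscle list took 0.0547% to 4.10% of reads at day 10 and 0.0307% to 1.0% at day 22, with day 10 replicate 10 and day 22 replicate 7 the lowest in their groups. Transcripts of 7 epidermal and hair follicle genes had a mean log2 value of 10.6 and 10.0 in day 10 replicates 7 and 10 and of 7.58 in day 22 replicate 7, against 5.27 to 7.19 in the other 16. The first principal component held 58.1% of the variance and placed all day 22 libraries at 12.9 to 74.6. It placed day 10 replicate 10 at 24.0, among them, and the other 9 day 10 libraries at -65.8 to -20.6. Epcam, the epithelial adhesion molecule that marks the labelled breast cancer tissue, ran from 439 to 773 CPM at day 10 (median 626) and from 468 to 716 CPM at day 22 (median 643).

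Of 13369 genes tested, 6622 differed between the days at an adjusted p under 0.05 (49.5%), 2622 of them higher (19.6%) and 4000 lower (29.9%) at day 22. These shares are the background for the counts of the gene lists below, several of which lie near them. At least 2-fold differences were fewer and mostly falls, with 180 genes higher (1.35%) and 1234 lower (9.23%). In 1252 genes (9.36%) the 10 and 9 libraries did not overlap in CPM, 580 with day 22 above (4.34%) and 672 with day 22 below (5.03%). Overlap of a gene is judged in CPM throughout and not on the deposited scale, so for small changes it depends on the scaling. The balance of small changes depended on the scaling. Median-of-ratios scaling called 6781 genes (50.7%), quantile normalization 7421 (55.5%) and log2(CPM + 1) 7263 (54.3%). Of the calls, 39.6% were higher at day 22 on the deposited scale, against 50.4%, 62.1% and 61.5% under these settings, and on log2(CPM + 1) the median of all tested genes was 0.08 in place of -0.03. Changes of about 0.1 on the log2 scale are therefore not read as a direction. With the muscle level of each library as a covariate 4178 genes were called (31.3%), and 3784 of the 6622 calls (57.1%) were kept with their sign.

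**Figure D1:**
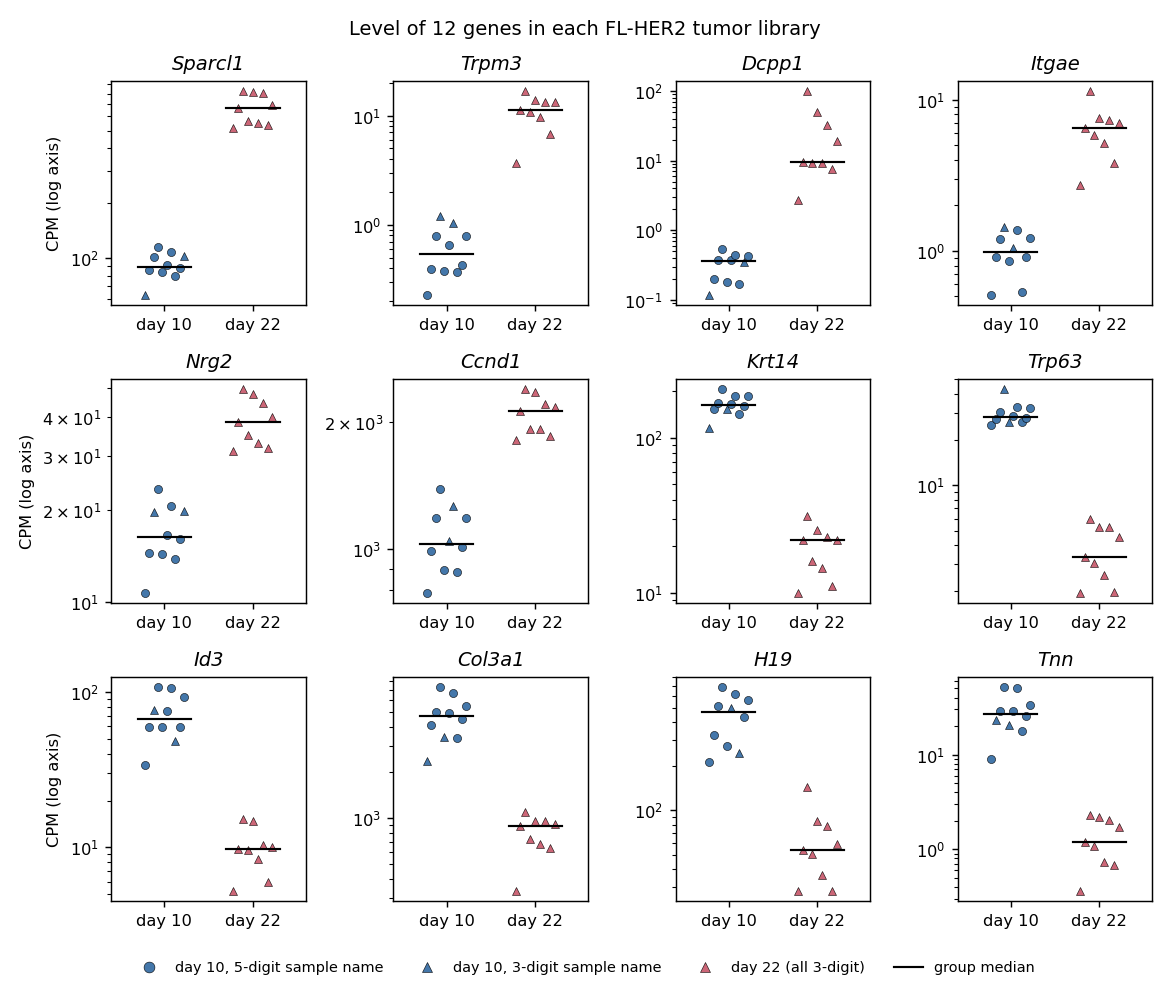
Level of 12 genes in each FL-HER2 library, in CPM on log axes. Points are libraries, circles have a 5-digit and triangles a 3-digit sample name, and black lines are group medians. In all 12 genes the day 10 and day 22 libraries do not overlap, Sparcl1 rising from a median of 89.8 to 668 CPM and Tnn falling from 26.9 to 1.18 CPM.

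The largest rises were those of Dcpp1, Dcpp2 and Dcpp3, neighbouring genes on chromosome 17 that encode small secreted proteins known from salivary glands. Their promoters are shown because the 3 genes moved together. The windows reach from 250 bases before to 50 bases after the RefSeq start site (GRCm38.p6, plus strand), and capitals mark the letters TATAA on the strand of the gene.
Dcpp1, chr17:23880626-23880925: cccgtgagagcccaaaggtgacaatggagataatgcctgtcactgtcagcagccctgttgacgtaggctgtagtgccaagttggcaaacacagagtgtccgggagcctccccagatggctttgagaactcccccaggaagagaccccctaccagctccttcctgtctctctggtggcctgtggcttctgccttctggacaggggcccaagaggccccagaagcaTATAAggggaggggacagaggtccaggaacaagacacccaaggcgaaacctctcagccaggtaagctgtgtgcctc
Dcpp2, chr17:23898472-23898771: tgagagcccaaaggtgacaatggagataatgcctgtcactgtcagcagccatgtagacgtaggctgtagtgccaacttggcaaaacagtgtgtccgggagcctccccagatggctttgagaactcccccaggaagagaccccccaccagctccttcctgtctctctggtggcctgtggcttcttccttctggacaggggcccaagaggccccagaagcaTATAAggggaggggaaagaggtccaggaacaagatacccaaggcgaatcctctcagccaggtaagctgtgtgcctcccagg
Dcpp3, chr17:23917208-23917507: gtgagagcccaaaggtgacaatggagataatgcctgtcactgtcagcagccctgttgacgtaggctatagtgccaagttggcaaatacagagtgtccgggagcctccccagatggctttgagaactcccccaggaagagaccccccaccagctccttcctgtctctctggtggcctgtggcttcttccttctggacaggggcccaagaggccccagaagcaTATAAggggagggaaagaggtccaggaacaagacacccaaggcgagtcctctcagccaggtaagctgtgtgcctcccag
These windows were 96.6% to 97.3% identical to each other. TATAA began 26, 31 and 29 bases before the start site of Dcpp1, Dcpp2 and Dcpp3, and 17.5% of all 32851 RefSeq promoter windows of this length hold the same letters on the gene's strand. The transcripts of Dcpp2 and Dcpp3 were 96.5% identical, and in the GENCODE M21 annotation the Dcpp2 gene (chr17:23880880-23900788) spans Dcpp1 (chr17:23880876-23882853), so reads could be split or lost between the copies and their separate values are uncertain.

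Dcpp1 ran from 0.116 to 0.537 CPM at day 10 (median 0.360) and from 2.73 to 99.6 CPM at day 22 (median 9.63). Every day 22 library was above every day 10 library, and the spread within day 22 was wide. The log2 difference was 5.48 (SE 0.50, adjusted p = 4.07e-08) for Dcpp1, 5.22 (SE 0.67, adjusted p = 2.57e-06) for Dcpp2 and 5.57 (SE 0.54, adjusted p = 8.45e-08) for Dcpp3. Dcpp2 was listed at 0 in 4 day 10 libraries, so its fold depends on the built-in pseudocount.

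Sparcl1 (chr5:104079111-104113733), which encodes the matricellular glycoprotein hevin, combined a large rise with a high level. It ran from 62.5 to 115 CPM at day 10 (median 89.8) and from 521 to 825 CPM at day 22 (median 668), with a log2 difference of 2.73 (SE 0.10, adjusted p = 4.74e-13). Trpm3 (chr19:22139046-22995410), a cation channel gene, ran from 0.227 to 1.22 CPM at day 10 (median 0.540) and from 3.66 to 16.7 CPM at day 22 (median 11.4). The log2 difference of Trpm3 was 4.0 (SE 0.30, adjusted p = 4.08e-09), again without overlap. Gjc3, which encodes a connexin of myelinating glia, differed by 4.05 (SE 0.25, adjusted p = 3.21e-10), and the serotonin receptor gene Htr5b by 2.59 (SE 0.13, adjusted p = 4.39e-11). Trpm3 and Gjc3 had day 10 means under 1 CPM (0.628 and 0.434), so they passed the filter on low levels through day 22. Susd5, a sushi domain gene, rose from 2.29 ± 0.939 to 21.9 ± 10.2 CPM (SD, n = 10 and 9).

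Several of the 12 largest rises belong to the immune system or to the MHC locus. H2-M2 and H2-T10, non-classical MHC class I genes, rose by 4.86 and 2.61, and both resemble other class I genes closely, so their counts are uncertain. Cd8a, a subunit of the cytotoxic T cell co-receptor, ran from 0.402 to 5.69 CPM at day 10 (median 1.13) and from 3.66 to 26.2 CPM at day 22 (median 13.3). The 2 ranges overlapped, and the log2 difference was 2.81 (SE 0.46, adjusted p = 4.18e-05). Itgae, the CD103 integrin chain of tissue-resident T cells and of some dendritic cells, rose by 2.48 without overlap. Strc, a stereocilin gene, rose by 3.72, with counts that a copy of the gene could share. H2-M2, Itgae and Strc had day 10 means under 1 CPM (0.134, 0.999 and 0.701), so they passed the filter on low levels through day 22.

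The largest fall was that of Tnn (chr1:160085029-160153580), which encodes a tenascin of the extracellular matrix. Tnn ran from 8.99 to 51.5 CPM at day 10 (median 26.9) and from 0.360 to 2.30 CPM at day 22 (median 1.18). This was a log2 difference of -4.53 (SE 0.35, adjusted p = 5.31e-09). Keratins of basal and stratified epithelium fell with it. Krt14 (chr11:100203162-100207548), the basal partner keratin, ran from 115 to 205 CPM at day 10 (median 163) and from 10.0 to 31.2 CPM at day 22 (median 21.8), a log2 difference of -3.25 (SE 0.18, adjusted p = 1.14e-10). Krt6a and Krt75, keratins of hair follicle and activated epithelium, fell (-4.28 and -3.23) on the log2 scale, and neither gene's groups overlapped. The level of Krt6a at day 10 ran from 2.25 to 14.6 CPM, so it started low.

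H19, an imprinted non-coding RNA, ran from 214 to 688 CPM at day 10 (median 467) and from 28.3 to 144 CPM at day 22 (median 54.0). Its log2 difference was -3.01 (SE 0.30, adjusted p = 1.10e-07). Dlk1, an imprinted non-canonical Notch ligand, differed by -3.83 (SE 0.34, adjusted p = 2.59e-08), and the retinol carrier gene Rbp4 by -3.11 (SE 0.25, adjusted p = 9.55e-09). Wfdc12, a protease inhibitor of the whey acidic protein family, differed by -3.88 (SE 0.45, adjusted p = 6.98e-07). Id3, which blocks basic helix-loop-helix transcription factors and is a target of BMP signalling, ran from 33.9 to 107 CPM at day 10 (median 67.2) and from 5.22 to 15.2 CPM at day 22 (median 9.70), with a log2 difference of -2.97 (SE 0.23, adjusted p = 5.32e-09). These 5 genes did not overlap between the days.

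Chad, a cartilage matrix gene outside the 12 largest falls that the naming rule took, fell (-4.26). For 3 of those 12 the muscle level mattered. Chrna1, a subunit of the muscle acetylcholine receptor, fell (-3.09), Popdc2, a gene of striated muscle, (-2.96) and Angptl1, an angiopoietin-like gene, (-2.98). With the muscle covariate these became -1.02, -0.71 and -1.42, and the share of their change that follows from muscle was not tested further.

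**Figure D2:**
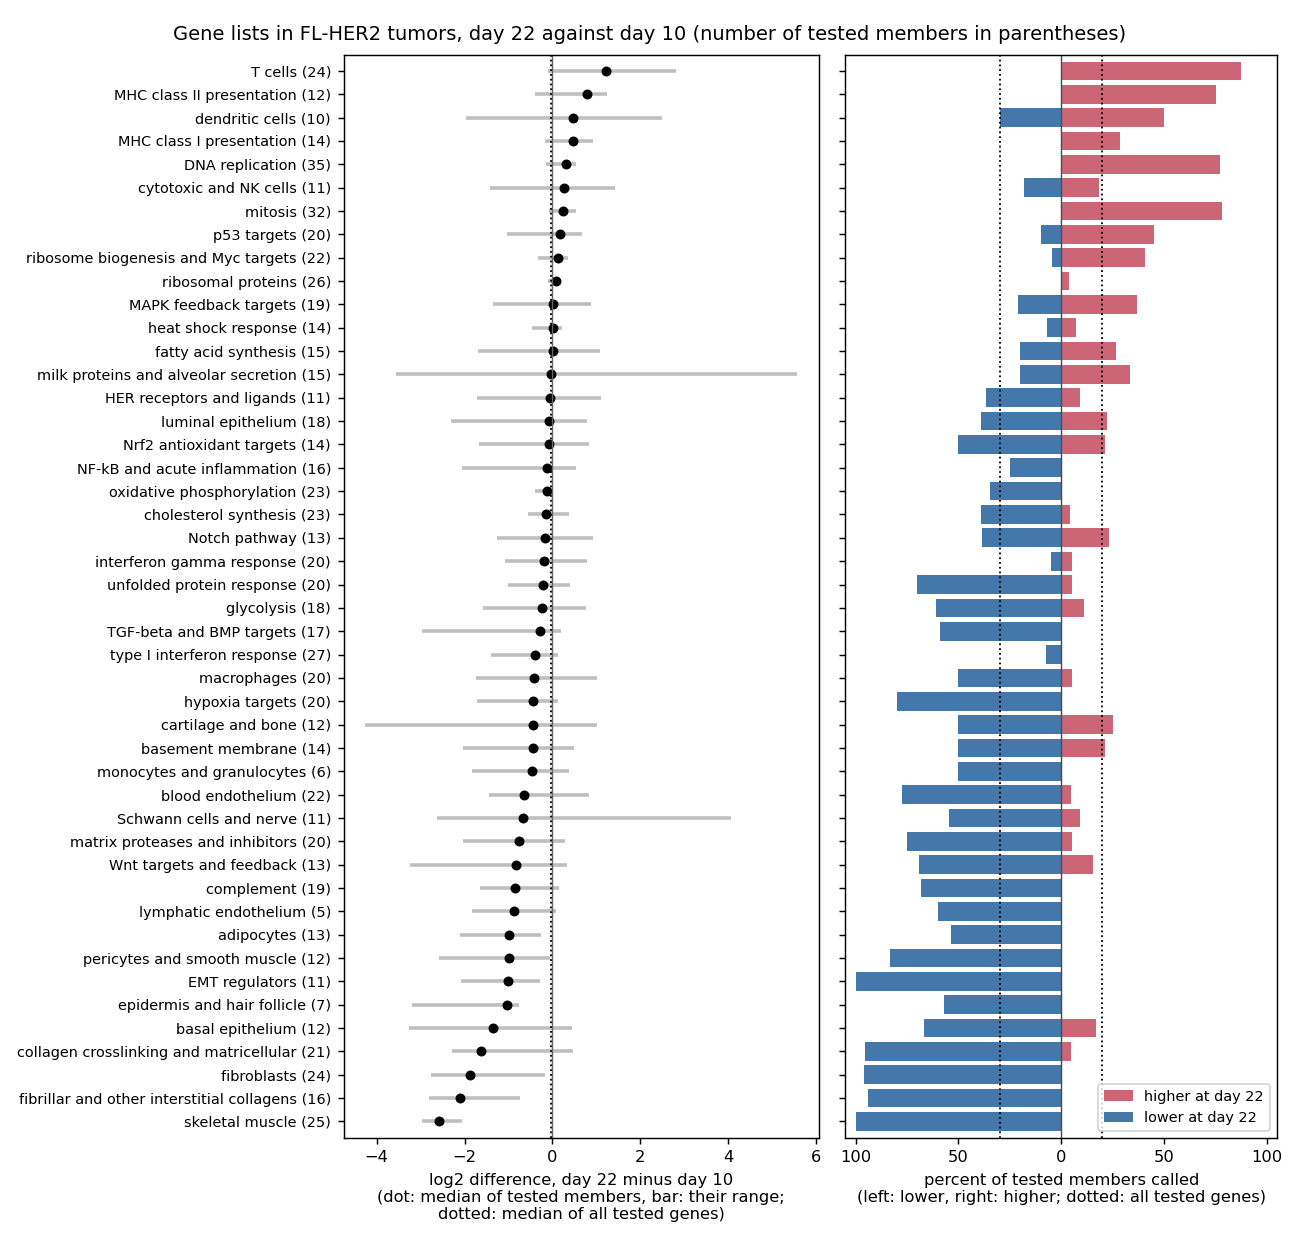
Gene lists with at least 5 tested members, ordered by median. The left panel shows the median (dot) and range (bar) of the log2 difference, day 22 minus day 10, and the right panel the percent of tested members called higher (red) or lower (blue), with dotted lines for all tested genes. T cell genes have the highest median at 1.22 and skeletal muscle genes the lowest at -2.57.

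The collagen matrix and its fibroblasts fell almost as a whole. Of 16 interstitial collagen genes tested, 15 fell and none rose, with a median of -2.10 against -0.03 over all tested genes, and 14 did not overlap between the days. Col3a1, a fibrillar collagen of soft tissue, ran from 2378 to 7265 CPM at day 10 (median 4691) and from 331 to 1089 CPM at day 22 (median 882). This was a log2 difference of -2.68 (SE 0.22, adjusted p = 1.02e-08). Col6a2 and Col6a1, chains of the beaded-filament collagen VI, fell (-2.80 and -2.62), and Col5a1, which nucleates collagen fibrils, (-2.53). Col10a1 was the member that was not called, at -0.74, but it was called at -1.78 (adjusted p = 0.00278) with the muscle covariate and at -1.01 (adjusted p = 0.0364) without day 22 replicate 7. Summed over the list, the collagens came to 11606 to 33186 CPM at day 10 and to 1891 to 5140 CPM at day 22.

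Of 24 fibroblast genes, 23 fell, with a median of -1.87. Lum, a keratocan-related proteoglycan of collagen fibrils, fell (-2.62), the collagen-binding decorin gene Dcn (-2.16) and Postn, the periostin gene of activated fibroblasts, (-2.29). Cd34, a surface marker of fibroblast progenitors and endothelium, fell from 72.3 ± 12.3 to 26.7 ± 4.15 CPM. Fbln1 was not called, at -0.17, but was at -0.26 (adjusted p = 0.04) without day 10 replicate 7. In genes of collagen crosslinking and matricellular proteins 20 of 21 fell (median -1.63). Among them were Sparc at -2.11, the fibrillin gene Fbn1 at -1.91, the lysyl oxidase gene Lox at -1.71 and the biglycan gene Bgn at -1.64. Vcan, the large proteoglycan versican, was the member that rose, by 0.46, and it was not called with the muscle covariate (0.25, adjusted p = 0.0664).

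The lists were also lower with the muscle level held. The medians with the muscle covariate were -1.94 for collagens, -1.54 for fibroblasts and -1.60 for crosslinking and matricellular genes, and with only the 3-digit day 10 libraries they were -1.52, -1.38 and -1.13. Day 22 replicate 4 was lowest of its group in Col3a1, at 331 CPM against at least 634 CPM in the other 8.

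Basement membrane genes split. Of 14 tested, 7 fell and 3 rose (median -0.44). Lama2, the laminin chain of muscle, nerve and mesenchymal basement membranes, fell (-2.04), and the linker gene Nid1 (-1.51). The laminin chains Lamb1, Lama4 and Lama5, of vessel and epithelial basement membranes, rose by 0.40, 0.40 and 0.48. Among matrix proteases and their inhibitors 15 of 20 fell (median -0.76). The matrix metalloproteinase gene Mmp19 fell (-2.03), the plasminogen activator gene Plat (-2.01) and the metalloproteinase inhibitor Timp3 (-1.43). Serpine2, a secreted serine protease inhibitor, was the member that rose, by 0.28 and without overlap.

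Vessel and complement genes were lower at day 22 to a smaller degree. Of 12 pericyte and smooth muscle genes 10 fell (median -1.0), among them the contractile gene Cnn1 (-2.22), Pdgfrb, the receptor that recruits pericytes, (-1.66) and the actin gene Acta2 (-1.51). Notch3, a pericyte receptor, was not called at -0.07 (with the muscle covariate -0.33, adjusted p = 0.0264). Of 22 blood endothelial genes 17 fell (median -0.65), among them the angiopoietin receptor gene Tek (-1.26) and the junction gene Esam (-0.81). Esm1, a marker of endothelial tip cells, rose by 0.83 without overlap, from 6.98 ± 1.04 to 13.5 ± 1.87 CPM. Erg, an endothelial transcription factor, was not called at -0.15 (with the muscle covariate -0.35, adjusted p = 0.0152). With only the 3-digit day 10 libraries 2 of the 22 endothelial genes were called lower (median -0.25), in a comparison that called 2539 genes (19%). Of 5 lymphatic endothelial genes 3 fell. In the complement list 13 of 19 fell and none rose (median -0.85), among them the protease gene C1s1 (-1.65) and the inhibitor of the first component, Serping1 (-1.40).

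In the epithelium most basal genes fell, but the summed level of the list changed little. It was 1474 to 2259 CPM at day 10 (median 1754) and 1391 to 2005 CPM at day 22 (median 1691). Of 12 tested basal genes 8 fell and 2 rose (median -1.36), and the mean of the list separated the days without overlap, at 10.33 to 10.68 at day 10 and 8.88 to 9.63 at day 22 on the log2 scale. Trp63, the transcription factor that keeps basal identity, ran from 25.1 to 43.1 CPM at day 10 (median 28.1) and from 1.92 to 5.99 CPM at day 22 (median 3.32). Its log2 difference was -3.20 (SE 0.19, adjusted p = 2.89e-10). Col17a1, the transmembrane collagen of hemidesmosomes, fell (-2.35) and Krt17 (-1.98). Without the 3 libraries of high skin level the list median was -1.35. Other adhesion genes of the same list did not fall. Itga6, the laminin-binding integrin chain, rose by 0.45 (not called with the muscle covariate, 0.09, adjusted p = 0.439), while its partner chain gene Itgb4 was not called at -0.12.

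Luminal genes were mixed, with 7 of 18 lower and 4 higher (median -0.09), against 29.9% and 19.6% of all tested genes. Krt7 and Krt19, luminal keratins, fell (-2.31 and -1.26), and the oestrogen receptor gene Esr1 (-0.99), each without overlap. Kit, the receptor that marks luminal progenitors, and Tfap2c, a luminal transcription factor, rose by 0.78 and 0.69. In the list of milk and secretory proteins 5 of 15 rose, the 3 Dcpp genes, Csn3, and Fcgbp, and 3 fell. The 3 Dcpp genes had day 10 means under 1 CPM, so they passed the filter on low levels through day 22. Their rises are therefore no result about the list. The kappa casein gene Csn3 rose by 1.27, whereas the beta casein gene Csn2 fell (-3.57) and was listed at 0 in 3 day 22 libraries (with the muscle covariate -2.19, adjusted p = 0.0588). Fcgbp, a mucin-like secreted protein, differed by 3.25 (SE 1.14, adjusted p = 0.0233). It was listed at 0 in 4 day 10 libraries and was not called with the muscle covariate (0.71, adjusted p = 0.687), on log2(CPM + 1) (0.84, adjusted p = 0.165) or in the rank-sum test (adjusted p = 0.155). Among libraries whose muscle share lay between 0.1% and 1.3%, 2 at day 10 and 8 at day 22, its sign turned (-1.87).

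All 11 genes of the list of epithelial-mesenchymal transition regulators fell (median -1.01). The transcription factors Twist2, Prrx1 and Snai2 fell (-2.07, -1.98 and -1.80), and the fibronectin gene Fn1 from 2636 ± 523 to 1075 ± 338 CPM. Fibroblasts express these genes too, and their contribution was not tested. Of 13 Wnt targets and feedback genes 9 fell and 2 rose (median -0.82). Notum, a secreted Wnt deacylase, fell (-3.24), Dkk3 (-2.29) and Lgr5, the R-spondin receptor gene of stem cells, (-2.22). Rnf43 and Znrf3, ubiquitin ligases that clear Wnt receptors, rose by 0.30 and 0.32, and neither was called with the muscle covariate (0.09, adjusted p = 0.422 and 0.07, adjusted p = 0.648).

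Of 13 Notch pathway genes 5 fell and 3 rose (median -0.17), against 29.9% and 19.6% of all tested genes. The ligand genes Jag1 and Jag2 fell (-1.25 and -1.18) without overlap, and the receptor gene Notch1 rose by 0.36. In the TGF-beta and BMP list 10 of 17 fell and none rose (median -0.29), 8 and 3 under log2(CPM + 1). Among the falls were Id3 and Id1, at -2.97 and -2.29, the activin subunit gene Inhba at -1.73 and the ligand gene Tgfb1 at -0.89. Pmepa1, a feedback target of the pathway, was not called at 0.03.

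Among HER receptors and their ligands 4 of 11 fell and 1 rose (median -0.06), against 29.9% and 19.6% of all tested genes. Erbb2 fell (-0.84), from 184 ± 29.4 to 113 ± 25.2 CPM. Its counts hold reads of the construct only as far as these align to the mouse gene. Egfr and Erbb3 were not called, at -0.02 and -0.00. The neuregulin ligands moved in opposite directions. Nrg1 fell (-1.72), whereas Nrg2 ran from 10.7 to 23.4 CPM at day 10 (median 16.3) and from 31.0 to 49.4 CPM at day 22 (median 38.7), a log2 difference of 1.10 (SE 0.12, adjusted p = 3.72e-07), and in neither gene did the days overlap. The EGF receptor ligands Egf and Hbegf fell (-1.57 and -0.69) and were not called with the muscle covariate (-0.40, adjusted p = 0.196 and -0.49, adjusted p = 0.132).

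MAPK output was mixed in direction. Of 19 targets and feedback genes 7 rose and 4 fell (median 0.02), against 19.6% and 29.9% of all tested genes. Ccnd1, the cyclin of early G1, ran from 788 to 1394 CPM at day 10 (median 1029.7) and from 1812 to 2396 CPM at day 22 (median 2124). It rose by a log2 difference of 0.87 (SE 0.08, adjusted p = 8.29e-08). The PEA3 transcription factors Etv1, Etv4 and Etv5 rose by 0.78, 0.58 and 0.39. The feedback inhibitor Spry1 and the AP-1 subunit Fosl1 fell (-0.72 and -1.36), and Phlda1 was not called at 0.08.

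Genes of cell division rose by small amounts in most members. Of 35 DNA replication genes 27 rose and none fell, with a median of 0.30. Under log2(CPM + 1) the count was 31 and the median 0.42, and with the muscle covariate 16 and 0.23. The promoters of 2 members of the replicative helicase are shown, with capitals marking the E2F letters TTTGGCGC or TTTCGCGC on either strand. Both windows are RefSeq windows of GRCm38.p6 on the minus strand, written in the direction of transcription, and in Mcm6 a pair of matches on opposite strands overlap.
Mcm3, chr1:20820263-20820562: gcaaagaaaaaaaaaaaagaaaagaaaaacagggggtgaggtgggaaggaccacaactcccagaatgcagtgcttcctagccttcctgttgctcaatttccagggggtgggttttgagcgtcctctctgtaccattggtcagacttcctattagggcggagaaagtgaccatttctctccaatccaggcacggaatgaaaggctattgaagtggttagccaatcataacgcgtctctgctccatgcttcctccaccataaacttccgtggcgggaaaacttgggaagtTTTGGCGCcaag
Mcm6, chr1:128359656-128359955: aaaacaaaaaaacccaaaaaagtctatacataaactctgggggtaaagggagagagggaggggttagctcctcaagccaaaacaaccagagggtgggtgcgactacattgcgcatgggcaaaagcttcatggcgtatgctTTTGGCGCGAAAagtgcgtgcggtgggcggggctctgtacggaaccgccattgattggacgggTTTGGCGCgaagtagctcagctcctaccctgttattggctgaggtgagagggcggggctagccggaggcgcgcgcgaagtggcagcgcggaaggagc
These letters were in 9 of 28 DNA replication genes with a window (32.1%) and in 180 of 10467 tested genes with one (1.72%). Within the list, 7 of the 22 that rose (31.8%) and 2 of the 6 that were not called (33.3%) held them, so the letters did not separate members that rose from those that did not. A match is a description of the letters and not of binding.

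Mcm6 ran from 186 to 269.6 CPM at day 10 (median 241) and from 305 to 389.7 CPM at day 22 (median 354), a log2 difference of 0.48 (SE 0.06, adjusted p = 6.70e-07). Mcm3 differed by 0.39 (SE 0.05, adjusted p = 2.03e-06) and the cell cycle transcription factor E2f1 by 0.41 (SE 0.06, adjusted p = 1.38e-05), and in all 3 genes every day 22 library was above every day 10 library. Tyms, which makes thymidylate, was not called at 0.06. The mean of the list ran from 10.45 to 10.80 at day 10 and from 10.88 to 11.01 at day 22.

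Of 32 mitosis genes 25 rose and none fell (median 0.23). The survivin gene Birc5 rose by 0.43, the kinetochore gene Cenpf by 0.53 and the kinesin gene Kif2c by 0.35, and the centromere histone Cenpa was not called at -0.08. With the muscle covariate 4 mitosis genes were called higher and 1 lower (median 0.13). The list means overlapped, because day 10 replicate 10 (11.53) lay above all day 22 libraries except replicate 8 (11.533). The number of ribosomal protein genes that rose, of 26, followed the scaling (1 as deposited, 18 under log2(CPM + 1), 22 after quantile normalization). Of 22 genes of ribosome biogenesis 9 rose and 1 fell (median 0.12), among them the nucleolar gene Nop58 by 0.34. The polyamine enzyme gene Odc1 fell (-0.33) and was not called with the muscle covariate (-0.20, adjusted p = 0.0984).

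Hypoxia targets fell in 16 of 20 members and rose in none (median -0.44). Car9, the carbonic anhydrase of hypoxic tumor cells, ran from 110.4 to 151 CPM at day 10 (median 135) and from 67.1 to 117 CPM at day 22 (median 86.1). This was a log2 difference of -0.69 (SE 0.09, adjusted p = 2.30e-06). P4ha1 and P4ha2, prolyl hydroxylases that both hypoxia and collagen synthesis use, fell (-0.76 and -0.90), and Ddit4 was not called at -0.19. In glycolysis 11 of 18 fell and 2 rose (median -0.25), among them the lactate exporter Slc16a3 (-1.33) and the regulator Pfkfb3 (-0.64), while the aldolase gene Aldoc rose by 0.76 without overlap. With the muscle covariate, a fit that called 31.3% of all tested genes in place of 49.5%, 5 fell and 1 rose. Muscle expresses many glycolytic genes, and its contribution was not tested.

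Stress lists moved in different directions. Of 20 unfolded protein response genes 14 fell and 1 rose (median -0.21), 7 and 2 under log2(CPM + 1). The pro-apoptotic factor Ddit3 fell (-1.01), the pseudokinase gene Trib3 (-0.68) and the transcription factor Xbp1 (-0.57). Sdf2l1, an endoplasmic reticulum protein, was the member that rose (0.40), and the chaperone gene Hspa5 was not called at -0.04. Of 20 p53 targets 9 rose and 2 fell (median 0.17). The cell cycle inhibitor Cdkn1a rose by 0.50, the death receptor gene Eda2r by 0.68 and Trp53inp1 by 0.64, each without overlap, and Perp, a desmosome-linked target, fell (-1.03). Of 14 Nrf2 targets 7 fell, among them the glutathione transferase gene Gstm1 (-1.67), the haem oxygenase gene Hmox1 (-1.04), the sulfiredoxin gene Srxn1 (-0.81) and the quinone reductase gene Nqo1 (-0.73), and 3 rose, 4 and 6 under log2(CPM + 1). Nqo1 was not called with only the 3-digit day 10 libraries (-0.19, adjusted p = 0.27), and Gstm1 belongs to a family of similar genes, so its count is uncertain.

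In cholesterol synthesis 9 of 23 fell and 1 rose (median -0.14), among them Cyp51 (-0.51), but 4 fell and 2 rose under log2(CPM + 1). In fatty acid synthesis 4 of 15 rose and 3 fell, against 19.6% and 29.9% of all tested genes. The acetyl-CoA carboxylase gene Acacb fell (-1.70, and -0.84 with the muscle covariate). Thrsp, a lipogenic regulator of the mammary gland, rose by 1.09 without overlap, and the desaturase gene Fads2 by 0.70. Of 23 oxidative phosphorylation genes 8 fell (median -0.12), 1 under log2(CPM + 1) and none with the muscle covariate. In the heat shock response 1 of 14 rose and 1 fell.

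**Figure D3:**
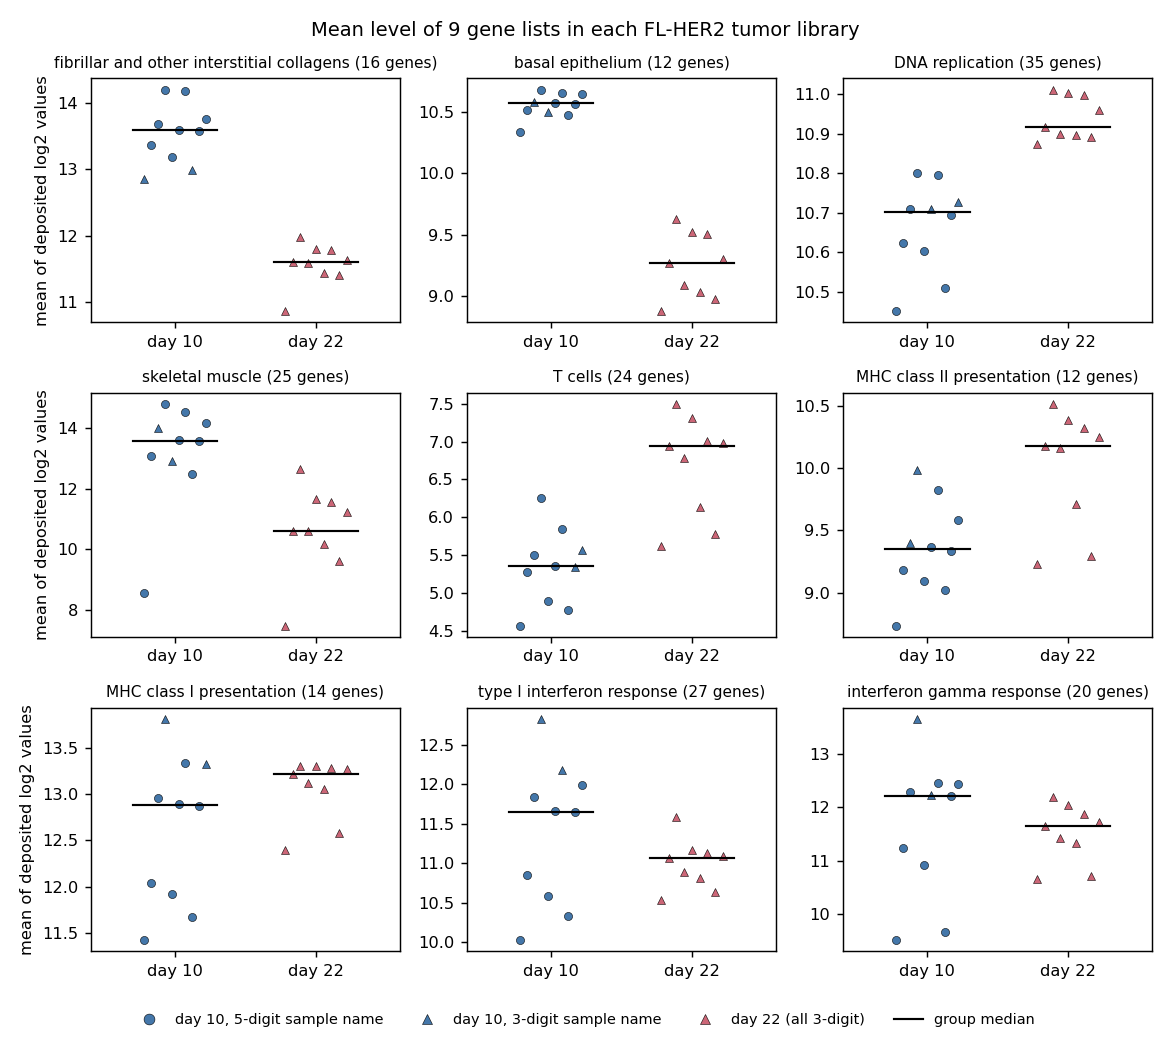
Mean of the deposited log2 values over the tested members of 9 lists in each FL-HER2 library. Points are libraries (circles 5-digit, triangles 3-digit names) and black lines are group medians. Collagens, basal epithelium and DNA replication separate the days, while the day 10 libraries alone run from 10.03 to 12.83 in the type I interferon and from 9.51 to 13.66 in the interferon gamma list.

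T cell genes rose. Of 24 tested, 21 rose and none fell (median 1.22), and 17 rose at least 2-fold. The list mean ran from 4.57 to 6.26 at day 10 (median 5.36) and from 5.62 to 7.49 at day 22 (median 6.94), and day 22 replicates 5, 6 and 7 lay within the day 10 range. Pdcd1, the inhibitory receptor PD-1, ran from 0.536 to 1.44 CPM at day 10 (median 0.760) and from 1.93 to 5.31 CPM at day 22 (median 4.05). Its log2 difference was 2.01 (SE 0.24, adjusted p = 1.36e-06). Tigit, another inhibitory receptor, rose by 2.66 and Foxp3, the factor of regulatory T cells, by 1.87. Tcf7 was not called at -0.10. In 8 of the 24 genes the day 10 mean was under 1 CPM, so these passed the filter on low levels through day 22. With the muscle covariate 22 rose and the median was 2.04, and with only the 3-digit day 10 libraries 7 rose (median 1.16).

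By count, cytotoxic effector genes did not stand out from all tested genes. Of 11 genes of cytotoxic and NK cells 2 rose and 2 fell (median 0.27). That is not above the shares of all tested genes, 19.6% higher and 29.9% lower. The chemokine genes Ccl5 and Xcl1 rose by 0.88 and 1.42. The granzyme gene Gzma fell (-1.42, but -0.32, adjusted p = 0.61 with the muscle covariate) and the transcription factor Eomes (-0.87). With the muscle covariate 7 of the 11 rose and 1 fell (median 1.61), whereas against the 3-digit day 10 libraries 2 fell (median -0.58). There Ccl5 and Xcl1 were not called (0.39, adjusted p = 0.602 and 0.57, adjusted p = 0.5), and Ccl5 was not called in the fit of all 39 libraries (adjusted p = 0.073).

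Genes of MHC class II presentation rose in 9 of 12 members and fell in none (median 0.78). H2-Eb1, a beta chain that presents peptides to CD4 T cells, ran from 96.2 to 201 CPM at day 10 (median 128) and from 168 to 554 CPM at day 22 (median 409.7). The log2 difference came to 1.25 (SE 0.21, adjusted p = 7.61e-05). H2-Aa rose by 1.09, the invariant chain Cd74 by 1.06 and the transactivator Ciita by 0.79. In limma none of the 12 was called with only the 3-digit day 10 libraries, 1 at an unadjusted p under 0.05 (median 0.34), while 10 rose with the muscle covariate (median 1.28), and day 10 replicate 9, a 3-digit library, had the highest list mean of its day. Of 10 dendritic cell genes tested 5 rose and 3 fell, and 3 of the 10 had a day 10 mean under 1 CPM, so these passed the filter on low levels through day 22. Itgae and the interleukin-12 subunit gene Il12b rose by 2.48 and 2.03, and the lectin gene Clec10a, which macrophages also express, fell (-1.96).

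Interferon genes varied more among the day 10 libraries than between the days. The mean of the type I interferon list ran from 10.03 to 12.83 at day 10 (median 11.66) and from 10.53 to 11.59 at day 22 (median 11.07). Day 10 replicates 1, 2, 3 and 10 lay between 10.03 and 10.86 and the other 6 between 11.65 and 12.83. Of 27 genes 2 fell and none rose (median -0.40), namely Isg20 (-1.40) and the antiviral gene Rsad2 (-0.99). Against the 2 day 10 libraries with 3 digits 26 of 27 fell (median -1.49), and against the 8 with 5 digits, a comparison that called 6675 genes (49.9%), 1 fell (median -0.12). The list median was 0.23 with the muscle covariate, so its sign depended on the setting. Rsad2 was not called with that covariate (-0.37, adjusted p = 0.494) or against the 5-digit libraries (-0.65, adjusted p = 0.0644).

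Of 20 interferon gamma response genes 1 rose, Ciita, and 1 fell, Socs1 (median -0.19), and against the 3-digit day 10 libraries 13 fell (median -1.47). The muscle covariate gave 6 rises and a median of 0.79. Socs1, a feedback inhibitor, differed by -1.08 (SE 0.44, adjusted p = 0.0476) and by 0.011 with the muscle covariate. Cd274, which encodes PD-L1, ran from 4.49 to 89.4 CPM at day 10 (median 29.9) and from 8.79 to 23.6 CPM at day 22 (median 15.7) and was not called (-0.49 (SE 0.46, adjusted p = 0.391)). Against the 3-digit day 10 libraries it was called at -1.85 (adjusted p = 0.00506). In MHC class I presentation 4 of 14 rose and none fell (median 0.46). These were H2-K1 by 0.70, H2-Q4 by 0.92, the immunoproteasome gene Psmb8 by 0.85 and the transactivator Nlrc5 by 0.93. All 4 signs turned against the 3-digit day 10 libraries (-0.17, -0.17, -0.056 and -0.45), where 4 of the 14 fell and the list median was -0.47. With the muscle covariate 12 of the 14 rose (median 1.03), and against the 5-digit day 10 libraries 8 rose (median 0.67).

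Of 20 macrophage genes 10 fell and 1 rose (median -0.43). Mrc1, the mannose receptor of tissue macrophages, ran from 41.7 to 80.3 CPM at day 10 (median 66.7) and from 10.3 to 31.5 CPM at day 22 (median 19.6). Its log2 difference was -1.74 (SE 0.18, adjusted p = 1.86e-07). Folr2 and Cd163, which mark resident macrophages, fell (-1.34 and -1.30), and Gpnmb, a lysosomal glycoprotein of lipid-laden macrophages, rose by 1.0. With only the 3-digit day 10 libraries Folr2 and Cd163 were not called (-0.90, adjusted p = 0.07 and -0.91, adjusted p = 0.139). In that comparison 5 macrophage genes fell and 2 rose (median -0.16), as also with the muscle covariate (median -0.31). These settings called 19% and 31.3% of all tested genes. C1qa and Apoe, abundant macrophage transcripts, were not called, at -0.16 and -0.08. Of 6 monocyte and granulocyte genes tested 3 fell and none rose, among them the chemokine receptor gene Ccr2 (-0.92) and Plac8 (-1.82). Of 16 genes of acute inflammation 4 fell and none rose (median -0.12), and 3 rose under log2(CPM + 1). That is not above the share of all tested genes that fell, 29.9%. Among the falls were the monocyte attractants Ccl2 and Ccl7 (-1.65 and -2.05) and the prostaglandin synthase gene Ptgs2 (-1.78).

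Genes of tissues that can lie next to a tumor fell as well. All 25 muscle genes fell (median -2.57), with summed levels of 547 to 41014 CPM at day 10 and 307 to 10042 CPM at day 22. The calcium-binding gene Casq1 of the muscle reticulum fell (-2.86). Day 10 replicate 10 was the low library at day 10 in these genes. Of 13 adipocyte genes 7 fell and none rose (median -0.98), among them Lpl, Fabp4 and Pparg (-1.48, -1.18 and -1.04). Of 11 genes of Schwann cells and nerve 6 fell, among them the myelin genes Mal and Pmp22 (-2.16 and -1.28), and 1, Gjc3, rose. Gjc3 passed the filter on low levels through day 22, so its rise is no result about the list. Of 12 cartilage and bone genes 6 fell, led by Chad and the aggrecan gene Acan (-3.76), and 3 rose, while Col2a1, the collagen of cartilage, was not called at -0.15. The epidermal keratin gene Krt1 was listed at 0 in 7 of 9 day 22 libraries and reached 205 CPM at day 10, and it was not called (-2.61). It was called at -6.53 (adjusted p = 0.00146) with the muscle covariate and at -1.21 (adjusted p = 0.0389) without the 3 libraries of high skin level. Of 7 epidermal genes tested 4 fell. Calls without the 3 libraries of high skin level came to 6892 (51.6%).

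**Figure D4:**
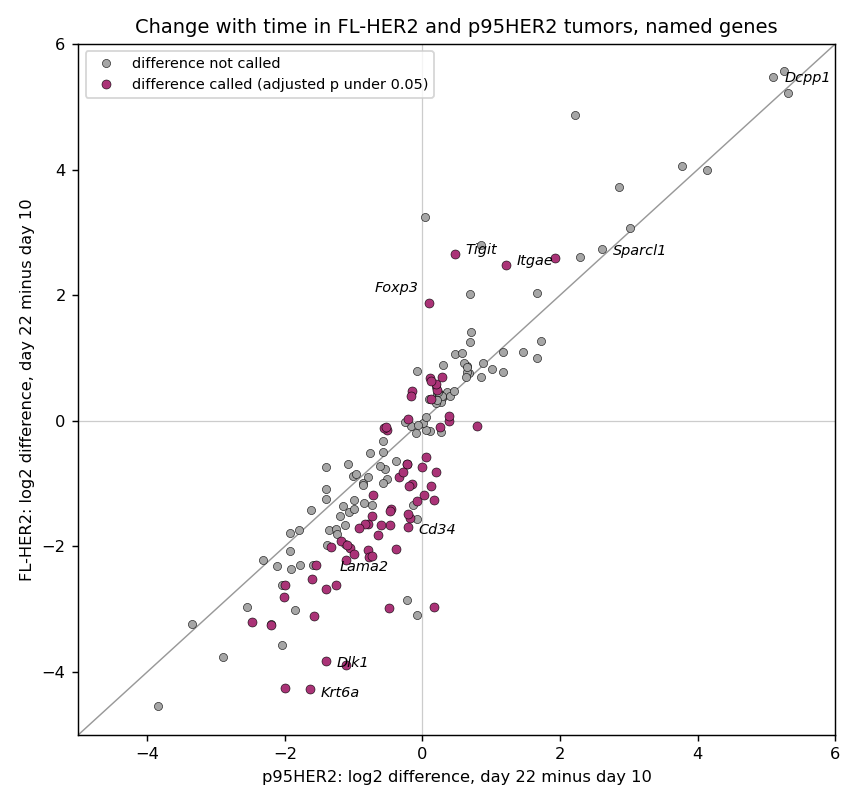
Log2 difference between day 22 and day 10 of the named genes in FL-HER2 tumors (vertical) and p95HER2 tumors (horizontal), both from the fit of all 39 libraries. Each point is a gene, purple points have a called difference between the 2 changes and the grey line marks equal change. Dcpp1 and Sparcl1 lie near the line and Foxp3, Tigit and Krt6a away from it.

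The change with time was compared with that in the p95HER2 tumors, which share no library with these. It differed between the constructs in 2655 of 13369 genes (19.9%), and in 2100 with the muscle level as a covariate. The muscle list had a median of -2.57 in FL-HER2 and -0.02 in p95HER2, and every p95HER2 library has a 3-digit name. The contrast between constructs is therefore tied to muscle level and to name digits. Of the blood endothelial genes 16 of 22 differed, with a median of -0.65 in FL-HER2 and 0.24 in p95HER2. With only the 3-digit FL-HER2 day 10 libraries the FL-HER2 median was -0.25. Of the interstitial collagens 12 of 16 differed (medians -2.10 and -1.40), of the fibroblast genes 12 of 24 (-1.87 and -0.81) and of the oxidative phosphorylation genes 13 of 23 (-0.12 and 0.11). None of the 35 DNA replication genes was called for a difference in limma (medians 0.30 and 0.25), and 0 of them at an unadjusted p under 0.05. None of the 32 mitosis genes (medians 0.23 and 0.09) and none of the 27 type I interferon genes was called, 10 and 1 at an unadjusted p under 0.05. Tek fell (-1.26), and its change in FL-HER2 minus that in p95HER2 tumors was -1.42 (SE 0.31, adjusted p = 0.00127). With only the 3-digit FL-HER2 day 10 libraries the FL-HER2 change of Tek was not called (-0.64, adjusted p = 0.182). Foxp3 and Tigit rose more in FL-HER2 tumors, by 1.77 (SE 0.42, adjusted p = 0.00286) and 2.19 (SE 0.71, adjusted p = 0.026), and Itgae by 1.27 (SE 0.44, adjusted p = 0.0373). Dcpp1, Sparcl1, Trpm3 and Krt75 were not called for a difference between the constructs, with estimates of 0.38, 0.12, -0.14 and 0.13. That does not show that they changed alike.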

How the data were processed

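Directional poly(A) libraries were made from PB2 breast tumors, per the labels' protocols. The submitters' processing notes name STAR 2.4.2a, DESeq2 and the mm10 build. A read counter, an annotation, a strand setting and filters are not stated in these sources. The authors' deposited values are log2(read count / size factor + 1), which was read from the numbers themselves: with the log2 and the pseudocount removed, 100% were whole multiples of a unit that is constant in each library (tolerance 0.001 reads). The plan had allowed for plain CPM. Whole reads recovered with this unit gave CPM.

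Groups came from the labels, and replicate numbers follow the order of the records. Genes with a mean of at least 1 CPM over the 19 FL-HER2 libraries were tested, a filter that does not use the day, with limma 3.58.1 in R 4.3.3 (lmFit and eBayes with a trend on the log2 values, two-sided, Benjamini-Hochberg over all tested genes, called at an adjusted p under 0.05). The difference between constructs was a contrast in a fit of all 39 libraries. The test was also run on simulated data. Other settings covered pseudocounts, filters, scaling, library weights, a rank-sum test, voom, the muscle level, skin, sample name digits and each library left out.

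The members and the 49 gene lists (881 genes, 872 in the table) were chosen with earlier results of these data known, so lists are described by counts and medians without a test of the list. Named genes were the 12 largest rises and falls that kept their call and sign with the muscle covariate and lay outside neighbouring tissue lists. Added to them were the 5 largest of each without the muscle and list conditions. Both sets needed a mean of 5 CPM or more on the higher day. They also needed a difference of group medians of the same sign and of a set share of the log2 change. The rule further took up to 4 called members of each list by adjusted p, its most abundant uncalled member, Erbb2 and Cd274. Other printed genes were chosen after their values were seen, among them Egfr, Erbb3, Hbegf, Spry1, Fosl1, Itga6, Csn2, Fcgbp, Rnf43 and Znrf3. Predicted genes, receptor segments, mitochondrial and Y-linked genes were left out, and not every gene this rule takes is printed. Promoters are RefSeq windows (GRCm38.p6) and gene positions those of GENCODE M21, in the same assembly as mm10.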

Additional observations from a re-analysis of the deposited data

Results flagged for a closer look

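A library stood apart from the others of its day in 22 of 360 groups of values of the named genes (6.11%), where chance gives about 1 in 20. Day 22 replicate 4 was the low library in 8 of them, mostly matrix and stromal genes: Acta2 (17.8 CPM), Cd34 (17.4 CPM), Col3a1 (331 CPM), Col5a1 (66.5 CPM), Fbn1 (35.4 CPM), Nid1 (29.7 CPM), Prrx1 (6.98 CPM) and Tgfb1 (43.5 CPM). Its muscle share, 0.235% of reads, was within the range of the other day 22 libraries. Day 10 replicate 10, with 0.0547% of reads from muscle genes, was low in Casq1 (7.26 CPM), Chrna1 (0.624 CPM), Mal (1.25 CPM) and Popdc2 (0.399 CPM). Day 10 replicate 9, one of the libraries with a 3-digit name, was low in Krt19 (66.1 CPM), Lgr5 (15.8 CPM), Sparcl1 (62.5 CPM) and Xbp1 (202 CPM) and high in Trp63 (43.1 CPM). Day 22 replicate 7, with the highest skin level of its day, was low in Angptl1 (0.0310 CPM) and high in Krt1 (3.35 CPM) and Znrf3 (46.0 CPM). Single cases were Cenpa in day 10 replicate 3 (111 CPM) and Esm1 in day 22 replicate 9 (9.25 CPM).

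In 71 named genes the change with time differed between the constructs in limma's test of that difference, against 19.9% of all tested genes. The named genes were chosen for their change in FL-HER2 tumors, so a larger change there carries no weight. Values are the FL-HER2 change minus the p95HER2 change on the log2 scale, with the ties to muscle level and name digits given above. In the matrix and fibroblasts they were -1.27 for Col3a1, -0.93 for Col5a1, -0.62 for Col6a1, -0.79 for Col6a2, -1.36 for Lum, -1.39 for Dcn, -0.74 for Postn, -1.36 for Cd34, -1.13 for Sparc, -0.72 for Fbn1, -0.79 for Lox, -0.85 for Bgn and -0.89 for Prrx1. In basement membranes and proteases they were -1.66 for Lama2, -0.77 for Nid1, 0.57 for Lamb1, 0.63 for Lama5, -0.98 for Mmp19, -0.68 for Plat and -0.96 for Timp3. In vessels and complement they were -1.42 for Tek, -1.01 for Esam, 0.37 for Erg, -0.81 for C1s1 and -0.94 for Serping1.

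In epithelial and signalling genes the difference was -1.05 for Krt14, -2.65 for Krt6a, -0.72 for Trp63, 0.45 for Itgb4, -0.35 for Epcam, -2.77 for Wfdc12, -2.43 for Dlk1, -1.54 for Rbp4, 0.67 for Htr5b, -1.12 for Lgr5, -0.47 for Jag2, 0.23 for Pmepa1, -0.38 for Erbb3, 0.39 for Etv4 and -0.31 for Phlda1. In growth, metabolism and stress it was 0.21 for Nop58, -0.47 for Car9, -0.56 for P4ha2, -0.85 for Ddit3, -0.45 for Trib3, -0.62 for Xbp1, 0.28 for Cdkn1a, 0.58 for Eda2r, 0.51 for Trp53inp1, -0.84 for Hmox1, -0.72 for Nqo1, -1.06 for Gstm1, -0.52 for Srxn1, -1.48 for Acacb and 0.41 for Fads2. In immune genes it was 1.77 for Foxp3, 2.19 for Tigit, 0.43 for Tcf7, 1.27 for Itgae, -0.87 for Apoe, -1.18 for Plac8, -1.18 for Ccl2 and -1.26 for Ccl7. In genes of muscle, fat, nerve and cartilage it was -3.13 for Popdc2, -2.50 for Angptl1, -1.26 for Lpl, -1.20 for Fabp4, -1.16 for Pparg, -1.42 for Mal, -1.20 for Pmp22 and -2.27 for Chad.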

How the results depend on the processing

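Calls ranged from 6168 to 6775 genes when any single library was left out, with 2389 to 2691 higher and 3779 to 4084 lower. They moved beyond 1.5 times under 4 settings. With the muscle level as a covariate 4178 genes were called, 1561 higher and 2617 lower. With only libraries of 0.1% to 1.3% muscle reads, 2 at day 10 and 8 at day 22, 1989 were called, 646 higher and 1343 lower. With only the 2 day 10 libraries of 3-digit names 2539 were called, 797 higher and 1742 lower, and both of these settings test fewer libraries. A log2 change of at least 1 left 1414 genes. The number of genes higher at day 22 was 4465 on log2(CPM + 1) and 4605 after quantile normalization. Other settings gave 5506 (mean of at least 5 CPM, with 11347 genes tested) to 7583 calls (library weights). No paired analysis was possible because replicate numbers were given in record order and match no sample of one day to a sample of the other.

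Of 160 named genes that were called, 12 lost the call and 1 turned sign with the muscle covariate (Socs1, 0.011), under which 4 others gained one (Col10a1 -1.78, Krt1 -6.53, Erg -0.35, Notch3 -0.33), 29 lost it and 4 turned with the 3-digit day 10 libraries (H2-K1 -0.17, H2-Q4 -0.17, Psmb8 -0.056, Nlrc5 -0.45), and 26 lost it and 1 turned in the muscle-limited libraries (Fcgbp, -1.87). Any single library left out ended the call of 3 of them and gave one to 2 others (Col10a1 and Fbln1). Socs1 lost its call in 13 such fits and Nlrc5 in 12, and H2-K1 in 1. Causes were not tested.

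The day is tied to muscle level and to sample name digits: all day 22 libraries have 3 digits and 8 of 10 day 10 libraries have 5. Sample name digits and time can be separated only through day 10 replicates 7 and 9, and replicate 7 is high in skin genes. At 21.8 reads or more per CPM, counting limits precision most in genes near 0 CPM, such as Dcpp2, Csn2 and Krt1. How much counting adds to the spread between libraries was not tested.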
